A study of Mus musculus with 6 samples.

Results

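The CC chemokine genes considered here were Ccl2, Ccl3, Ccl4, Ccl5, Ccl6, Ccl7, Ccl8, Ccl9, Ccl12 and Ccl24. They were chosen by symbol from the CC ligand family, and all 10 were found among the 55421 genes of the count table, in the smaller normalized table and among the 14469 genes that passed the filter on low counts. RNA-seq had been done on TAMs (tumor-associated macrophages) from mice bearing tumors labelled M17 (the MC17-51 fibrosarcoma line of the study's text, grown under the skin). The cells had been taken on day 15 by the surface proteins CD11b and F4/80. The study's methods, written for its Shp2f/f and Shp2f/fLysMCre mice, describe sorting live TAMs that also carried CD45 and lacked Ly6G. There were 3 libraries from Pdcd1f/f mice, in which the gene for PD-1 is flanked by loxP sites, and 3 from Pdcd1f/fLysMcre mice, which carry the same floxed alleles and Cre recombinase under the lysozyme (LysM) promoter, active in myeloid cells. The comparison asks which transcripts of TAMs differ when Pdcd1 has been targeted in the myeloid lineage. The controls carry no Cre, so loss of PD-1 and the presence of Cre cannot be told apart. Whether a library came from 1 mouse or from several is not given in the sources used here.

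CC chemokines are small secreted proteins named for a pair of adjacent cysteines, and they act on G-protein-coupled CC receptors to direct leukocyte migration. Macrophages are a major source of the family in tumors. The monocyte chemoattractant proteins (MCPs) Ccl2, Ccl7 and Ccl12 act mainly on CCR2 and recruit monocytes, and mouse Ccl8, of the same group, acts on CCR8. Ccl3 and Ccl4 are the macrophage inflammatory proteins and Ccl5 is also known as RANTES. Ccl3, Ccl5, Ccl6 and Ccl9 are ligands of CCR1. Ccl24 is an eotaxin, a ligand of CCR3.

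Ccl5 and Ccl8 fell in Pdcd1f/fLysMcre TAMs and the other 8 genes did not pass the test. Ccl5 fell by 44.3% and Ccl8 fell by 26.2%, while the remaining genes, among them the most abundant ones, had log2 fold changes between -0.02 (Ccl3) and 0.17 (Ccl2). The threshold was an adjusted p of 0.05 in edgeR's quasi-likelihood test over all genes tested. These 2 calls of 10 stood beside 5.43% of all genes called in either direction and 3.01% called lower. The median log2 fold change of the 10 genes was 0.06 and the median of its size was 0.09, against 0.16 for the size over all genes tested. In a bulk sample, fewer cells of a type and less RNA per cell cannot be told apart.

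Library totals ran from 41833823 to 51417209 counts. The transcript of Lyz2, into which the Cre is inserted, ran from 208000 to 225200 normalized counts (the authors' counts divided by 1 size factor per library) in Pdcd1f/f and from 404.8 to 465.4 in Pdcd1f/fLysMcre libraries. The genotypes thus differed in Lyz2 as well, which cannot be told apart from the targeting of Pdcd1. For Pdcd1 itself the tables give 10, 12 and 15 counts among controls against 7, 16 and 11 with Cre, so that counts per gene did not show the deletion. The summed Y-linked transcripts Ddx3y, Eif2s3y, Kdm5d and Uty ran from 1545 to 1914 normalized counts in Pdcd1f/f and from 6267 to 7233 in Pdcd1f/fLysMcre libraries, and a difference in the sex of the animals cannot be told apart from genotype. Of 8 macrophage markers 5 fell, namely Adgre1, Csf1r, C1qa, C1qb and Mertk, and the summed markers ran from 281573 to 331701 in Pdcd1f/f and from 230501 to 249781 in Pdcd1f/fLysMcre libraries. All 8 were detected in every library, as the label TAM requires. Among other cells, 2 of 6 tested neutrophil markers fell (Csf3r and Mmp8, with at most 3 counts of Ly6g). So did 1 of 6 for fibroblasts or tumor cells (Col1a2) and 1 of 3 for endothelium (Pecam1). Beside these counts, 3.01% of all genes tested were called lower. Of the 6 neutrophil markers 3 had log2 fold changes above 0, namely S100a8 (0.23), S100a9 (0.12) and Cxcr2 (0.03), none past the threshold. The same held for 2 of the 6 fibroblast or tumor markers and 1 of the 3 endothelial ones. By edgeR 0 of 1 tested passed for B cells (1 at an unadjusted p under 0.05) and 0 of 1 for eosinophils and mast cells (0 at an unadjusted p under 0.05), and DESeq2 and limma each called 0 in both lists. The part of these differences in the results below was not tested.

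The MCP genes lie side by side on the plus strand of chromosome 11 of GRCm38, from Ccl2 at its left end through Ccl7 and Ccl12 to Ccl8, within chr11:82035571-82116799. Ccl8 (ENSMUSG00000009185) occupies chr11:82115185-82116799 and is separated from Ccl12 by 11.8 kb. Ccl8 was the one gene of this group that passed the test. Its normalized counts were 9946, 9936 and 8582 in Pdcd1f/f libraries and 7369, 7136 and 6484 in Pdcd1f/fLysMcre libraries. The groups did not overlap, and replicate 3 was the lowest library of each. The mean was 9488 ± 784 (SD, n = 3) in Pdcd1f/f and 6996 ± 458 in Pdcd1f/fLysMcre TAMs, and the log2 fold change was -0.44 (SE 0.079, 95% interval from -0.61 to -0.26, edgeR adjusted p = 0.0104). Without Pdcd1f/f replicate 2 the log2 fold change was -0.40 and the edgeR adjusted p was 0.0680, while it passed in the other 5 fits that left out 1 library.

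The neighbor of Ccl8, Ccl12 (ENSMUSG00000035352, chr11:82101845-82103400), did not pass the test. It had 6159, 5344 and 4892 normalized counts in Pdcd1f/f and 5947, 6251 and 5319 in Pdcd1f/fLysMcre libraries. The ranges overlapped, and the spread within a genotype was larger than the distance between the means of 5465 ± 642 and 5839 ± 475 (SD, n = 3). The log2 fold change was 0.10 (SE 0.092, 95% interval from -0.11 to 0.30, edgeR adjusted p = 0.551). Because the 2 genes are neighbors and Ccl8 alone passed the test, the 250 bases before their start sites are shown, from the RefSeq annotation of GRCm38.p6, both on the plus strand, at chr11:82114935-82115184 for Ccl8 and chr11:82101595-82101844 for Ccl12, with the letters TATAAA in capitals.
Ccl8: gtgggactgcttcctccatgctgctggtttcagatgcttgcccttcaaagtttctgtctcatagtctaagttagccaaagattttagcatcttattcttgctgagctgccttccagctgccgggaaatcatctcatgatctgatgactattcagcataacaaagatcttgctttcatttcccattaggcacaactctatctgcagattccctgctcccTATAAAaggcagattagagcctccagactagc
Ccl12: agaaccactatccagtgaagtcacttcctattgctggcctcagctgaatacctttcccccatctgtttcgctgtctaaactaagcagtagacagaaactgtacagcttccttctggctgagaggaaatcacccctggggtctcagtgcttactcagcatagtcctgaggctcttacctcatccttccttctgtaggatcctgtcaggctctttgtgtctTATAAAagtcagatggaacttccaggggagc

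Both stretches hold TATAAA once, its first base 32 bases before the start of Ccl8 and 31 bases before that of Ccl12. These letters, on either strand, occur in 12.4% of the 32851 stretches of this length in the table. The table held 5 of the 10 genes, Ccl3, Ccl6, Ccl8, Ccl9 and Ccl12, and TATAAA was present in 3 (Ccl8, Ccl9 and Ccl12). On both strands, TGANTCA (AP-1; 6.75% of all stretches) and the NF-kB consensus (7.25%) were each found in Ccl9 alone, and TTNNGNAA (C/EBP; 36.8%) in Ccl9 and Ccl3. In Ccl9 the NF-kB match overlaps one of those to TTNNGNAA. Neither the interferon-stimulated response element core (2.98%) nor TTCNNNGAA (GAS; 7.02%) occurred in any of the 5. A match is a run of letters and no measure of binding.

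Ccl2 (ENSMUSG00000035385, chr11:82035571-82037453), the main CCR2 ligand, had 20665, 20013 and 19779 normalized counts in Pdcd1f/f libraries and 22127, 24000 and 21768 in Pdcd1f/fLysMcre libraries. Every Pdcd1f/fLysMcre library lay above every Pdcd1f/f library. The means were 20152 ± 459 and 22632 ± 1199 (SD, n = 3). The log2 fold change of 0.17 (SE 0.062, 95% interval from 0.03 to 0.31) had an edgeR adjusted p of 0.132, above the threshold. Ccl2 passed in 2 of 16 alternative fits, described with the library spread.

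Ccl7 (ENSMUSG00000035373, chr11:82045712-82047525), 8.26 kb from Ccl2, had 29092, 26127 and 25574 normalized counts in Pdcd1f/f and 28091, 30131 and 26369 in Pdcd1f/fLysMcre libraries. The groups overlapped, and the log2 fold change was 0.07 (SE 0.073, 95% interval from -0.09 to 0.23, edgeR adjusted p = 0.603). Apart from the 4 MCP genes, the same stretch of chromosome holds 2 further genes, the eotaxin gene Ccl11 and Gm17268, neither of which passed the filter on low counts. Ccl11 had between 2 and 10 counts in a library.

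**Figure D1:**
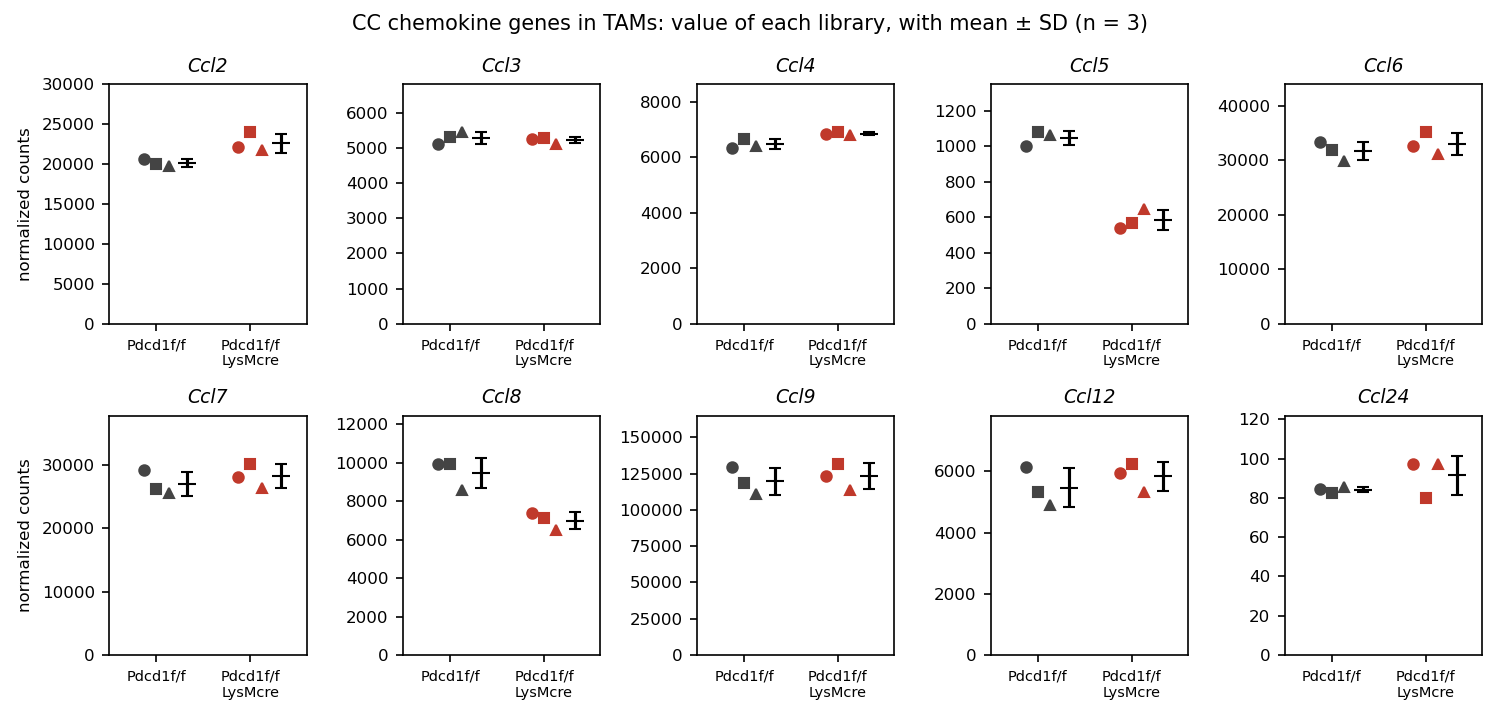
Normalized counts (y axis, from 0) of the 10 CC chemokine genes in each Pdcd1f/f (grey) and Pdcd1f/fLysMcre (red) library; circles, squares and triangles are replicates 1, 2 and 3, and the black bar beside each group is the mean with its SD. Ccl5 sits between 1004 and 1079 in Pdcd1f/f and between 538 and 645 in Pdcd1f/fLysMcre libraries, Ccl8 is separated less widely, and most other panels overlap.

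The second group of genes on chromosome 11 holds Ccl5, Ccl9, Ccl6, Ccl3 and Ccl4 within chr11:83525778-83664683, 1409 kb beyond Ccl8, with Ccl4 on the plus strand and the rest on the minus strand. Ccl5 (ENSMUSG00000035042, chr11:83525778-83530518), also a product of activated T and NK cells, had the largest change of the 10 genes. Its normalized counts were 1004, 1079 and 1062 in Pdcd1f/f libraries and 538, 567 and 645 in Pdcd1f/fLysMcre libraries. The groups were far apart relative to the spread within them, with means of 1049 ± 39.3 and 583 ± 55.6 (SD, n = 3). The log2 fold change was -0.84 (SE 0.092, 95% interval from -1.05 to -0.64, edgeR adjusted p = 7.13e-04), and its size exceeded that of 96.9% of all genes tested. For Ccl8 this share was 86.9%. Ccl5 passed the threshold in all 16 alternative fits, with log2 fold changes from -0.93 to -0.79.

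Because T and NK cells also make Ccl5, their markers are given beside it. Of 11 such markers, 4 passed the filter on low counts (Cd2, Trac, Cd4 and Gzma) and 0 passed the test by edgeR, DESeq2 or limma, with 0 at an unadjusted p under 0.05. The summed markers ran from 670 to 749 normalized counts in Pdcd1f/f and from 598 to 716 in Pdcd1f/fLysMcre libraries, and most of the sum was Cd4, with 611 ± 43.1 and 572 ± 60.2 (SD, n = 3). Several defining markers were near 0, with at most 11 counts of Cd3e, 8 of Cd3d, 8 of Cd3g, 2 of Cd8a and 4 of Ncr1 in any library. Trac, the T cell receptor alpha constant gene, had from 28 to 61 counts in a library, with 30.0 ± 3.55 normalized counts in Pdcd1f/f and 42.3 ± 12.2 in Pdcd1f/fLysMcre TAMs (SD, n = 3). Log2 fold changes were 0.50 for Trac (SE 0.29, edgeR adjusted p = 0.311), -0.42 for Cd2 (SE 0.31, edgeR adjusted p = 0.440), -0.09 for Cd4 and -0.02 for Gzma, so that 1 of the 4 was above 0 and 3 were below. The part of T and NK cells in the difference of Ccl5 was not tested. Among the others, the group of dendritic cell markers had 0 of 5 tested past the threshold (2 at an unadjusted p under 0.05, 0 by DESeq2 and 0 by limma). Of these 5, 4 had log2 fold changes above 0 and 1 below (Itgae, -0.29). The largest were Zbtb46 (0.69, SE 0.24, edgeR adjusted p = 0.120) and Flt3 (0.67, SE 0.25, edgeR adjusted p = 0.137), with at most 100 and 89 counts. In the fit with GC and length offsets described below, Zbtb46 had an edgeR adjusted p of 0.0465 and Flt3 one of 0.0584.

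The macrophage inflammatory protein genes Ccl3 and Ccl4, which share this stretch with Ccl5, did not pass the test. Ccl3 (ENSMUSG00000000982, chr11:83647844-83649355) had 5123, 5341 and 5461 normalized counts in Pdcd1f/f and 5270, 5309 and 5132 in Pdcd1f/fLysMcre libraries. All 6 values lay close together, with a log2 fold change of -0.02 (SE 0.059, 95% interval from -0.15 to 0.11, edgeR adjusted p = 0.886). Ccl4 (ENSMUSG00000018930, chr11:83662584-83664683), 13.2 kb from Ccl3, had 6317, 6663 and 6414 normalized counts in Pdcd1f/f and 6823, 6891 and 6792 in Pdcd1f/fLysMcre libraries. The Ccl4 groups did not overlap although the log2 fold change of 0.08 (SE 0.058, 95% interval from -0.05 to 0.21) had an edgeR adjusted p of 0.410. In all, the groups did not overlap for 4 of the 10 genes (Ccl2, Ccl4, Ccl5 and Ccl8), where 27.2% of all genes tested had groups that did not overlap.

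Ccl9 and Ccl6 are neighbors on the minus strand, 9.25 kb apart, and gave the most counts of the 10 genes. Ccl9 (ENSMUSG00000019122, chr11:83572919-83578636) had 129789, 118550 and 111300 normalized counts in Pdcd1f/f and 123546, 131798 and 113933 in Pdcd1f/fLysMcre libraries. Its groups overlapped, with a log2 fold change of 0.04 (SE 0.077, 95% interval from -0.13 to 0.21, edgeR adjusted p = 0.790). Ccl6 (ENSMUSG00000018927, chr11:83587882-83593087) had 33315, 31956 and 29954 normalized counts in Pdcd1f/f and 32608, 35170 and 31162 in Pdcd1f/fLysMcre libraries. These groups overlapped too, and the log2 fold change was 0.06 (SE 0.069, 95% interval from -0.10 to 0.21, edgeR adjusted p = 0.647). Reads of 42 bases could be shared with transcripts of other genes at 2.80% of the positions of Ccl9 and 0.400% of those of Ccl6, and at none of those of the other 8 genes.

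Ccl24 (ENSMUSG00000004814, chr5:135569937-135573049, minus strand) lies on another chromosome and was the scarcest of the 10. Raw counts were 91, 74 and 78 among controls against 105, 84 and 99 with Cre, or 84.4, 82.7 and 85.4 against 97.2, 80.0 and 97.3 normalized counts. Replicate 2 of Pdcd1f/fLysMcre was the lowest library of all, and the other 2 of that genotype were the highest. The log2 fold change of 0.12 had an SE of 0.17 and a 95% interval from -0.25 to 0.49 (edgeR adjusted p = 0.688), so at this depth a change as large as that of Ccl2 or as a fall of 15.8% lay inside the interval.

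**Figure D2:**
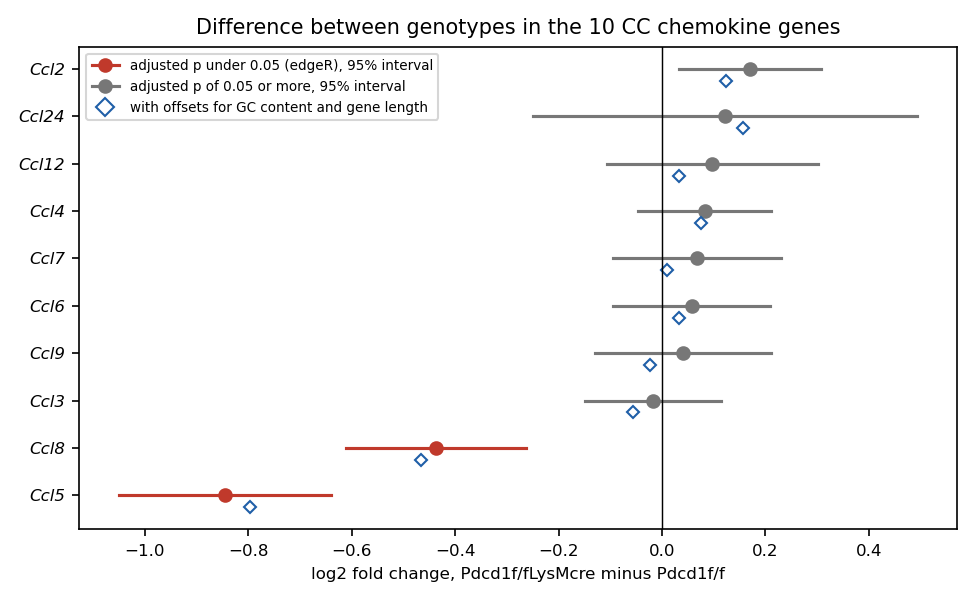
Log2 fold change (x axis, Pdcd1f/fLysMcre minus Pdcd1f/f) of each CC chemokine gene (y axis) with its 95% interval from edgeR (circles; red where the adjusted p is under 0.05), and the estimate under GC and length offsets (open blue diamonds). Ccl5 at -0.84 and Ccl8 at -0.44 stand below 0 with both methods, and the other 8 lie between -0.02 and 0.17 by the first method.

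The neighbors of these genes on chromosome 11 were counted. From 1 Mb before Ccl2 to 1 Mb after Ccl4 there were 93 other genes, of which 34 were tested and 1 passed, the Schlafen family gene Slfn2, a share no higher than the 5.43% called over all genes. Slfn2 rose by a log2 fold change of 0.27 (SE 0.060, edgeR adjusted p = 0.0257).

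Levels were compared between genes as TPM, the counts divided by exon length and scaled to the same total in each library. In Pdcd1f/f TAMs the order was Ccl9 (2763 ± 273 TPM, SD, n = 3), Ccl7 (2359 ± 214), Ccl8 (1303 ± 131), Ccl2 (1242 ± 54.3), Ccl6 (1241 ± 92.1), Ccl12 (715 ± 99.1), Ccl4 (687 ± 20.6), Ccl3 (486 ± 5.90), Ccl5 (76.5 ± 2.04) and Ccl24 (4.56 ± 0.098). The ranges of Ccl9 and Ccl7 overlapped, as did those of Ccl8 and Ccl2, of Ccl2 and Ccl6, and of Ccl12 and Ccl4. Taken library by library, Ccl9 nevertheless stood above Ccl7 in all 6 libraries of the study, whereas Ccl8 stood above Ccl2 in 2 of the 3 Pdcd1f/f libraries, Ccl6 above Ccl2 in 2 of 3 and Ccl12 above Ccl4 in 1 of 3. In Pdcd1f/fLysMcre TAMs Ccl9 had 2879 ± 209 TPM, Ccl7 2507 ± 169, Ccl2 1417 ± 78.3, Ccl6 1309 ± 82.0 and Ccl8 975 ± 59.7. Ccl8 thus stood at rank 3 in Pdcd1f/f and at rank 5 in Pdcd1f/fLysMcre TAMs, below both Ccl2 and Ccl6 in every Pdcd1f/fLysMcre library. Below it came Ccl12 (774 ± 62.2), Ccl4 (738 ± 7.64), Ccl3 (487 ± 8.06), Ccl5 (43.3 ± 4.32) and Ccl24 (5.03 ± 0.54). In this genotype the ranges overlapped between Ccl9 and Ccl7, Ccl2 and Ccl6, and Ccl12 and Ccl4, though Ccl2 stood above Ccl6 in all 3 libraries, and Ccl12 above Ccl4 in 2 of 3.

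**Figure D3:**
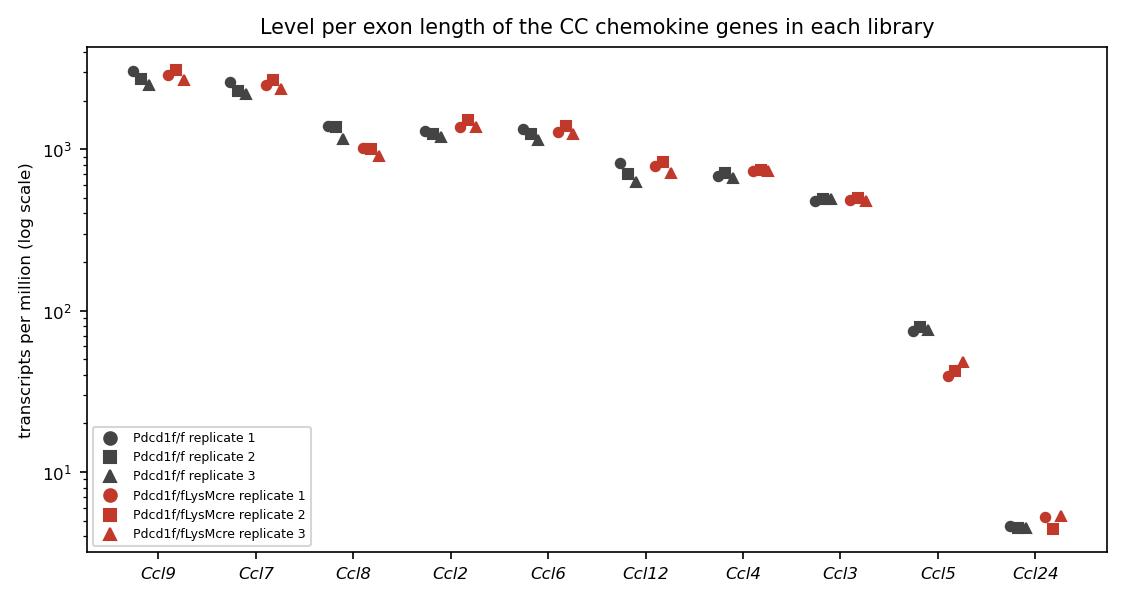
Level per exon length in TPM (y axis, log scale) of each CC chemokine gene (x axis, in the order of the Pdcd1f/f means) in each Pdcd1f/f (grey) and Pdcd1f/fLysMcre (red) library, with circles, squares and triangles for replicates 1, 2 and 3. The levels span from Ccl9, at 2763 TPM on average in Pdcd1f/f, to Ccl24 at 4.56 TPM.

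The share of all transcripts taken by the 10 genes overlapped between genotypes. The 10 genes held from 0.451% to 0.515% of all counts in Pdcd1f/f and from 0.463% to 0.517% in Pdcd1f/fLysMcre libraries, and their summed level ran from 10048 to 11737 TPM and from 10521 to 11804 TPM. Within that sum the share of Ccl8 ran from 11.5% to 12.6% in Pdcd1f/f and from 8.45% to 9.21% in Pdcd1f/fLysMcre libraries. The share of Ccl5 ran from 0.638% to 0.756% and from 0.357% to 0.457%. Ccl9, Ccl7, Ccl2 and Ccl6 together held from 69.2% to 70.5% of the sum in Pdcd1f/f and from 72.3% to 73.6% in Pdcd1f/fLysMcre libraries. None of these 3 shares overlapped between genotypes, and since the shares of 1 sum are bound to each other they are not separate results.

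Ratios taken within a library do not depend on its size factor. The log2 ratio of Ccl8 to its neighbor Ccl12 was 0.69, 0.89 and 0.81 in Pdcd1f/f libraries and 0.31, 0.19 and 0.29 in Pdcd1f/fLysMcre libraries, a difference in means of -0.54. Against Ccl7 and Ccl2 the mean log2 ratio of Ccl8 differed by -0.50 and -0.60. Ccl8 was therefore lower relative to each of the other MCP genes in every Pdcd1f/fLysMcre library than in any Pdcd1f/f library. The log2 ratio of Ccl5 to Ccl3 was -2.35, -2.31 and -2.36 in Pdcd1f/f and -3.29, -3.23 and -2.99 in Pdcd1f/fLysMcre libraries. Relative to Ccl4 the mean of Ccl5 differed by -0.93. The pairs Ccl4/Ccl3 and Ccl2/Ccl7 differed by 0.10 each, a smaller distance, and their groups did not overlap either. The pairs were chosen after their values had been seen, so no test is given.

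**Figure D4:**
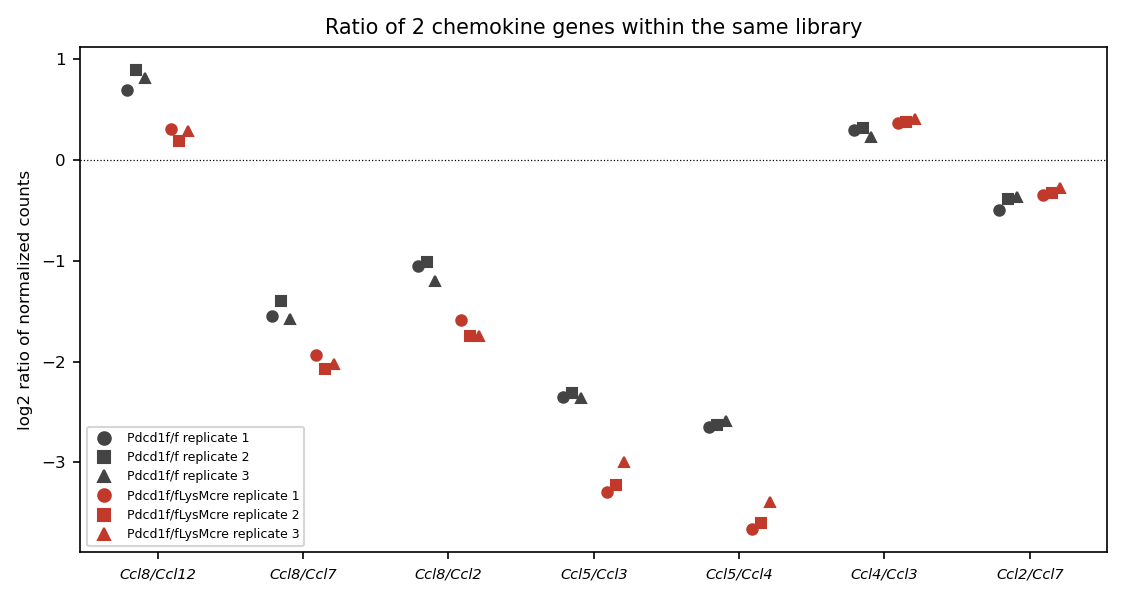
Log2 ratio of normalized counts (y axis) for 7 pairs of CC chemokine genes (x axis) within each Pdcd1f/f (grey) and Pdcd1f/fLysMcre (red) library, with circles, squares and triangles for replicates 1, 2 and 3. The ratios of Ccl8 to the other MCP genes and of Ccl5 to Ccl3 and Ccl4 are lower in all 3 Pdcd1f/fLysMcre libraries, with mean differences from -0.50 to -0.93, and those of Ccl4/Ccl3 and Ccl2/Ccl7 differ by 0.10, also without overlap.

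Many of the genes rose and fell together between libraries of one genotype. Pdcd1f/f replicate 1 was the highest library of its group for 6 of the 10 genes, Pdcd1f/fLysMcre replicate 2 for 7, and both for 5. These 5 were the genes of lowest GC content, such as Ccl12 (42.1% GC) and Ccl7 (42.9%), whereas Ccl5 (52.8%) was lowest of its group in Pdcd1f/f replicate 1. Across all genes tested, the deviation of a library from its genotype mean had a rank correlation with GC content of -0.579 in Pdcd1f/f replicate 1 and -0.490 in Pdcd1f/fLysMcre replicate 2, against 0.117 to 0.511 in the other 4 libraries. These are correlations across genes of the same libraries, which share depth and preparation, and genes are not replicates.

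When loess offsets for GC content and exon length were put in the fit, 19.0% of all genes were called and the same 2 of the 10, with log2 fold changes of -0.80 (SE 0.074, edgeR adjusted p = 1.03e-06) for Ccl5 and -0.47 (SE 0.045, edgeR adjusted p = 1.73e-06) for Ccl8. Ccl2 reached 0.12 (SE 0.042, edgeR adjusted p = 0.0504) in that fit. In a fit without Pdcd1f/f replicate 1 and Pdcd1f/fLysMcre replicate 2, chosen after the data had been seen, the log2 fold changes were -0.86 for Ccl5, -0.42 for Ccl8 and 0.14 for Ccl2 (edgeR adjusted p = 0.0265). Ccl5 and Ccl8 were thus called with and without these libraries. Ccl2 was called without them, and with all 6 libraries only in the fit that joined the offsets with the replicate block (log2 fold change 0.12, edgeR adjusted p = 0.0394).

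**Figure D5:**
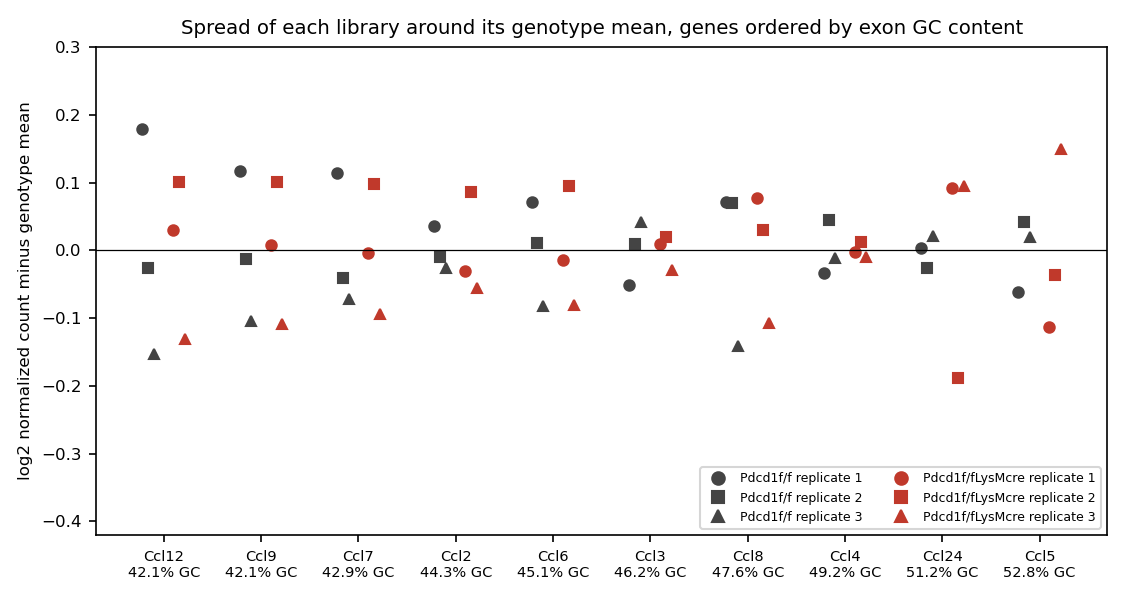
Log2 normalized count of each library minus the mean of its genotype (y axis) for the 10 CC chemokine genes, ordered by exon GC content (x axis); Pdcd1f/f grey, Pdcd1f/fLysMcre red, with circles, squares and triangles for replicates 1, 2 and 3. Pdcd1f/f replicate 1 and Pdcd1f/fLysMcre replicate 2 are the highest of their groups in the 5 genes of lowest GC content.

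By likeness of pattern (root mean square difference of centered log2(normalized count + 1) over the 6 libraries, among 10601 other genes with a mean of at least 100), the genes nearest to Ccl5, the gene with the largest fall, were Rcsd1 (0.048), Cnr2 (0.056) and Gpx3 (0.064). Being chosen for a pattern like that of Ccl5, these genes had to be lower in Pdcd1f/fLysMcre TAMs, and their values are a description. Rcsd1, which encodes a regulator of actin capping protein, went from 1399 ± 80.4 to 767 ± 45.7 normalized counts (SD, n = 3), with a log2 fold change of -0.86 (SE 0.082). Cnr2, the peripheral cannabinoid receptor, had -0.78 (SE 0.11) and Gpx3, a secreted glutathione peroxidase, had -0.91 (SE 0.15). The genes nearest to Ccl2, the gene with the largest positive fold change, were Gnai3 (0.011), Ugcg (0.014) and Ppp2ca (0.014). These had log2 fold changes of 0.18, 0.16 and 0.19, likewise set by the choice.

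The other 13 CC chemokine genes were scarce in these TAMs. Of them 7 (Ccl1, Ccl19, Ccl20, Ccl21a, Ccl21b, Ccl21c and Ccl26) had 0 counts in all libraries, where 3 counts is the limit that a count of 0 allows, and 3 passed the filter on low counts. None of the 3 passed the test by edgeR, DESeq2 or limma, and 0 had an unadjusted p under 0.05. Ccl22, a ligand of CCR4, had 86.8 ± 13.7 normalized counts in Pdcd1f/f and 96.2 ± 5.31 in Pdcd1f/fLysMcre TAMs (SD, n = 3), and Ccl25, a ligand of CCR9, had 122 ± 5.55 and 126 ± 6.22.

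The receptors for these ligands were led by CCR1. Of 15 CC receptor and atypical receptor genes 7 were tested and 0 passed by edgeR, DESeq2 or limma, with 1 at an unadjusted p under 0.05. That one, Ccr1, the receptor of Ccl3, Ccl5, Ccl6 and Ccl9, had a level of 409 ± 45.9 TPM in Pdcd1f/f and 485 ± 49.0 TPM in Pdcd1f/fLysMcre TAMs (SD, n = 3), with a log2 fold change of 0.23 (SE 0.088, edgeR adjusted p = 0.149). Ccrl2, an atypical receptor that binds chemerin and does not signal, stood at 261 ± 10.9 and 261 ± 2.89 TPM. Ccr2, the receptor of the MCPs Ccl2, Ccl7 and Ccl12, stood at 119 ± 10.2 and 120 ± 15.7 TPM. The log2 fold changes were -0.02 for Ccrl2 and -0.01 for Ccr2. Ccr8, on which mouse Ccl8 acts, had at most 8 counts in a library. Under the GC and length offsets Ccr1 passed with a log2 fold change of 0.14 (edgeR adjusted p = 0.0210).

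Downstream of the receptors, all 16 listed G protein, effector, arrestin, kinase and regulator genes were tested and 0 passed by edgeR, with 6 at an unadjusted p under 0.05, 4 by DESeq2 (which called 1517 genes in all) and 0 by limma. Their log2 fold changes ran from -0.32 to 0.18, 12 of the 16 were below 0 and the groups did not overlap for 6, beside 27.2% of all genes tested. The share of all genes tested at an unadjusted p under 0.05 is not given here. Counts at an unadjusted p, in this or any other list, therefore show no excess. The nearest to the threshold was Pik3cg, the catalytic subunit of the phosphoinositide kinase activated by chemokine receptors, with 5303 ± 91.1 normalized counts in Pdcd1f/f and 4526 ± 160 in Pdcd1f/fLysMcre TAMs (SD, n = 3), a log2 fold change of -0.23 (SE 0.059) and an edgeR adjusted p of 0.0536. Gng2, a G protein gamma subunit, had -0.29 (SE 0.081, edgeR adjusted p = 0.0670). Zfp36 (tristetraprolin), which binds AU-rich elements of cytokine and chemokine transcripts and promotes their decay, was the most abundant of the list at 1460 ± 106 and 1272 ± 61.1 TPM, and had a log2 fold change of -0.22 (SE 0.077, edgeR adjusted p = 0.117). Dpp4, a peptidase that trims chemokines, was scarce at 0.92 ± 0.13 and 1.04 ± 0.28 TPM. With the GC and length offsets, which called 19.0% of all genes, 9 of the 16 passed, of which Pik3r5 and Grk3 were higher and 7 were lower.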

How the data were processed

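TAM RNA had been poly(A)-selected with a stranded kit and sequenced as paired 42-base reads. By the submitters' processing notes the authors trimmed reads with cutadapt 2.5, aligned them with STAR 2.7.3a to GRCm38 and deposited raw counts per Ensembl gene from featureCounts (Subread 1.6.2). Their second deposited table holds a normalized signal for 16552 genes, in which each value equals the raw count divided by 1 size factor per library (largest relative deviation 5.11e-15); the authors made it with DESeq2 1.24.0. The strand setting and the handling of multi-mapped reads are not given in the sources used here.

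Genotypes came from the labels. Raw counts were tested with edgeR 4.0.16 (R 4.3.3), using filterByExpr (minimum count 10, total 15), TMM, robust glmQLFit, the two-sided glmQLFTest and Benjamini-Hochberg adjustment over 14469 genes, with a threshold of 0.05. The test had been checked on simulated counts without library differences tied to GC content, so the check does not cover such differences. With nothing saying that the libraries came from separate animals, p-values measure the spread between these libraries. TPM used union exon lengths from GENCODE M21 (GRCm38), which also gave symbols, positions and GC content. Promoters came from RefSeq (GRCm38.p6). Alternatives were RLE factors, library size alone, other count filters, DESeq2 1.42.0, limma-trend 3.58.1 on log2(value + 1), a replicate block, loess offsets for GC and length (span 0.5), each library left out and, chosen after the data were seen, 2 libraries left out. Named genes were all 10 chemokines, genes of other lists past the threshold or with the highest levels (at most 4 a list), and the 3 genes most like the extreme members. Signalling genes near the threshold, neighbors and low genes such as Ccr8, Dpp4 and Ccl11 were named after their values were seen. So were markers such as S100a8, S100a9, Cxcr2, Zbtb46 and Flt3. The values of 1 receptor gene of the lists are not reported here. The genes and lists were chosen with earlier results of these data known.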

Additional observations from a re-analysis of the deposited data

How the results depend on the processing

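Ccl5 was called lower in all 16 alternatives and Ccl8 in 15. Leaving out each library, or 2, gave between 1 and 3 calls among the 10 genes. Ccl8 was lost without Pdcd1f/f replicate 2 (log2 fold change -0.40, edgeR adjusted p = 0.0680). Ccl2 was called with the GC and length offsets plus the replicate block (0.12, edgeR adjusted p = 0.0394) and without Pdcd1f/f replicate 1 and Pdcd1f/fLysMcre replicate 2 (0.14, edgeR adjusted p = 0.0265), each of which gave 3 calls. The sign of Ccl3 turned without Pdcd1f/f replicate 3, its range with libraries left out being -0.057 to 0.0013. That of Ccl9 turned with the offsets (-0.024), with offsets and block (-0.024), without Pdcd1f/f replicate 3 and without Pdcd1f/fLysMcre replicate 2, its range with libraries left out being -0.013 to 0.091. Neither passed the test in any fit.

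Over all genes tested the count of 786 calls became 1517 with DESeq2, 1951 with all genes of at least 1 count, 2742 with the offsets (776 of the 786 among them) and 2817 with offsets and block. It ran from 222 (without Pdcd1f/fLysMcre replicate 1) to 3181 (without Pdcd1f/f replicate 1) with 1 library left out and was 3757 with the 2 left out. The replicate block alone gave 1027 calls and 2 of the 10 genes. Correlations of same-numbered libraries were -0.0132, -0.097 and 0.22. They rest on deviations from a mean of 3 libraries and cannot decide whether same-numbered libraries were paired. Among other CC chemokines 1 (Ccl28) was called with all genes of at least 1 count. Among receptors 1 (Ccr1) was called with that filter, 2 with the offsets, 2 with offsets and block, and from 0 to 1 with libraries left out. Among signalling genes 1 (Pik3cg) was called with library size alone or at least 10 counts in every library, 4 with DESeq2 or all genes of at least 1 count, 2 (Gng2 and Arrb2) with the replicate block, 9 with the offsets with or without the block, and from 0 to 7 with 1 library and 9 with 2 libraries left out. The causes were not tested. With 3 libraries a group the precision is limited, and Ccl24 is limited further by its depth of 74 to 105 counts.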
